A study of Mus musculus with 391 samples.

Results

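Cathepsins are the proteases of lysosomes, legumain is a lysosomal protease that cuts after asparagine, and cystatin C is a secreted inhibitor of many of them. The 10 genes described here are the cathepsin genes Ctsa, Ctsb, Ctsc, Ctsd, Ctsh, Ctsl, Ctss and Ctsz, the legumain gene Lgmn and the cystatin C gene Cst3. They were taken by name from a table of 56941 genes, and all 10 were found in it. The table holds raw read counts of 391 single cells from the brains of adult mice, obtained by digesting isolated vascular fragments and sequenced with Smart-seq2, a protocol that reads whole transcripts and carries no molecular identifiers. The labels name 280 cells microglia, the resident macrophages of the brain, and 111 cells endothelial, the lining cells of blood vessels. No strain, sex, genotype, treatment or animal is given for either class. A cell table codes the classes MG and CP-EC.

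Cathepsins are made as inactive precursors, carried to the lysosome largely by mannose 6-phosphate receptors, and activated there by cleavage. In macrophages they degrade engulfed protein, cut the invariant chain away from MHC class II molecules and trim the receptors that sense nucleic acids in endosomes. Transcription factors of the TFEB family bind a short palindrome in the promoters of many lysosomal genes.

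Levels are CPM, counts scaled to the size of the library, from reads summed by class, unless a value is said to be of single cells. The 280 microglia held 47508014 gene reads, with a median of 146506 a cell and a range of 39876 to 504875, and the 111 endothelial cells held 21361227, with a median of 174345 and a range of 83954 to 602175. Since cells are not labelled by animal, a class is a single sample and the classes were compared without a test. All intervals given are at 95% and cover counting error only, and reads without molecular identifiers are not independent molecules. The start of each cell's name shows 4 plates, called A to D here. Plate A held 133 microglia and 7 endothelial cells, plate B held 147 and 10, and plates C and D held 50 and 44 endothelial cells and no microglia. A gene counts as higher in a class where its level there is at least 4-fold that in the other on the log2(CPM + 1) scale. By that rule 19.9% of the 14989 genes at 1 CPM or more in either class were higher in microglia and 11.7% in endothelial cells. The classes were set against markers, which parts macrophages from endothelial cells. It does not part microglia from other macrophages within the microglia class, which is divided by clustering further below. All 20 microglia core genes were higher in the microglia class and 19 of 20 endothelial core genes in the endothelial class, where the exception was Vwf at 2.92 CPM in microglia and 1.31 CPM in endothelial cells. The summed level of the microglia core was 34375 CPM in microglia and 63.8 CPM in endothelial cells, and that of the endothelial core was 319 CPM in microglia and 41303 CPM in endothelial cells.

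Of the 10 genes, 9 were at least 4-fold higher in microglia than in endothelial cells and none was 4-fold higher in endothelial cells. The exception was Ctsl. The median log2 ratio over the 10 genes was 2.73, against 0.36 over all 14989 genes. The 10 genes fell into 3 sets. Ctsc, Ctss, Ctsh and Lgmn were at most 31.8 CPM in endothelial cells, Ctsb, Ctsa, Cst3, Ctsd and Ctsz were found in both classes with 4.31- to 7.00-fold more in microglia, and Ctsl stood at like levels in both.

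Ctsc encodes dipeptidyl peptidase I, which activates the granule proteases of immune cells. Single microglia held between 11.6 and 12019 CPM of Ctsc with a median of 1905 CPM, while single endothelial cells held between 0.0 and 22.5 CPM with a median of 0.0. Every microglia cell lay above the endothelial median. Of 111 endothelial cells 0 reached 10 Ctsc reads, which allows a share of up to 2.70%, taking 3 cells of 111 as the limit. The summed level was 2366 CPM in microglia and 1.31 CPM, or 28 reads, in endothelial cells, for a ratio of 1805 (1249 to 2716).

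Ctss encodes a cathepsin that stays active at neutral pH and cleaves the invariant chain in antigen-presenting cells. In single microglia its level ran between 21.4 and 11311 CPM with a median of 3023 CPM, against 0.0 to 32.4 CPM with a median of 0.0 in single endothelial cells. The summed level was 3075 CPM in microglia and 2.53 CPM, or 54 reads, in endothelial cells, for a ratio of 1216 (932 to 1619). The endothelial level of Ctss was 0.0822% of the microglia level and that of Ctsc 0.0554%. Over the 20 microglia core genes that share had a median of 0.120% and ran between 0.0359% and 2.38%, so both genes lay in the range of the core genes. Set against all microglia, the endothelial cells of plates A, B, C and D held 0.304%, 0.245%, 0.0753% and 0.0259% of the Ctss level, beside core medians of 0.268%, 0.178%, 0.119% and 0.0233%. The shares of Ctss and the core median were higher in plates A and B, which also held microglia, than in plates C and D. The summed core level did not follow that order. In endothelial cells it was 93.5, 78.3, 104 and 13.2 CPM in plates A, B, C and D, highest in plate C, which held no microglia. Over single endothelial cells it ran between 0.0 and 2595 CPM with a median of 25.5 CPM, so a single cell can weigh heavily in a plate sum. For Ctsc the shares were 0.220%, 0.0399%, 0.0579% and 0.0385%, highest in plate A, with plate B under plate C. Whether these reads come from the endothelial cells themselves was not tested.

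Ctsh encodes an aminopeptidase, and Lgmn encodes legumain, which also processes other cathepsins. Single microglia held between 0.0 and 4520 CPM of Ctsh with a median of 1029 CPM, and single endothelial cells between 0.0 and 389 CPM with a median of 0.0. A single cell of plate D carried 64.9% of all endothelial Ctsh reads, and the other 110 endothelial cells together stood at 2.46 CPM. For Lgmn, single microglia ranged between 12.2 and 15473 CPM with a median of 3322 CPM, and single endothelial cells between 0.0 and 1231 CPM with a median of 4.34 CPM. The summed levels of Lgmn were 3246 CPM in microglia and 31.8 CPM in endothelial cells, a ratio of 102 (94.7 to 110), and those of Ctsh were 1092 and 6.93 CPM, a ratio of 158 (134 to 186).

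The endothelial Lgmn reads sat in few cells. Of 111 endothelial cells, 5 reached 10 reads (4.50%, 1.48% to 10.2%), and these held 83.8% of the Lgmn reads, at 212 to 1231 CPM a cell. They came from plates B, C and D. Their summed microglia core markers were 25.5 to 157 CPM a cell with a median of 37.9 CPM, against a median of 20.2 CPM in the other 106 endothelial cells, and Ctss did not exceed 7.46 CPM in any of them. Their endothelial core markers summed to at least 31960 CPM a cell. The remaining 106 endothelial cells together stood at 5.34 CPM of Lgmn. Over all 111 endothelial cells, Spearman's rho with the summed microglia core markers was 0.51 for Lgmn and 0.50 for Ctss. For the rest of the 10 genes it ran between -0.06 and 0.23. Whether the Lgmn reads come from the endothelial cells themselves was not tested.

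**Figure D1:**
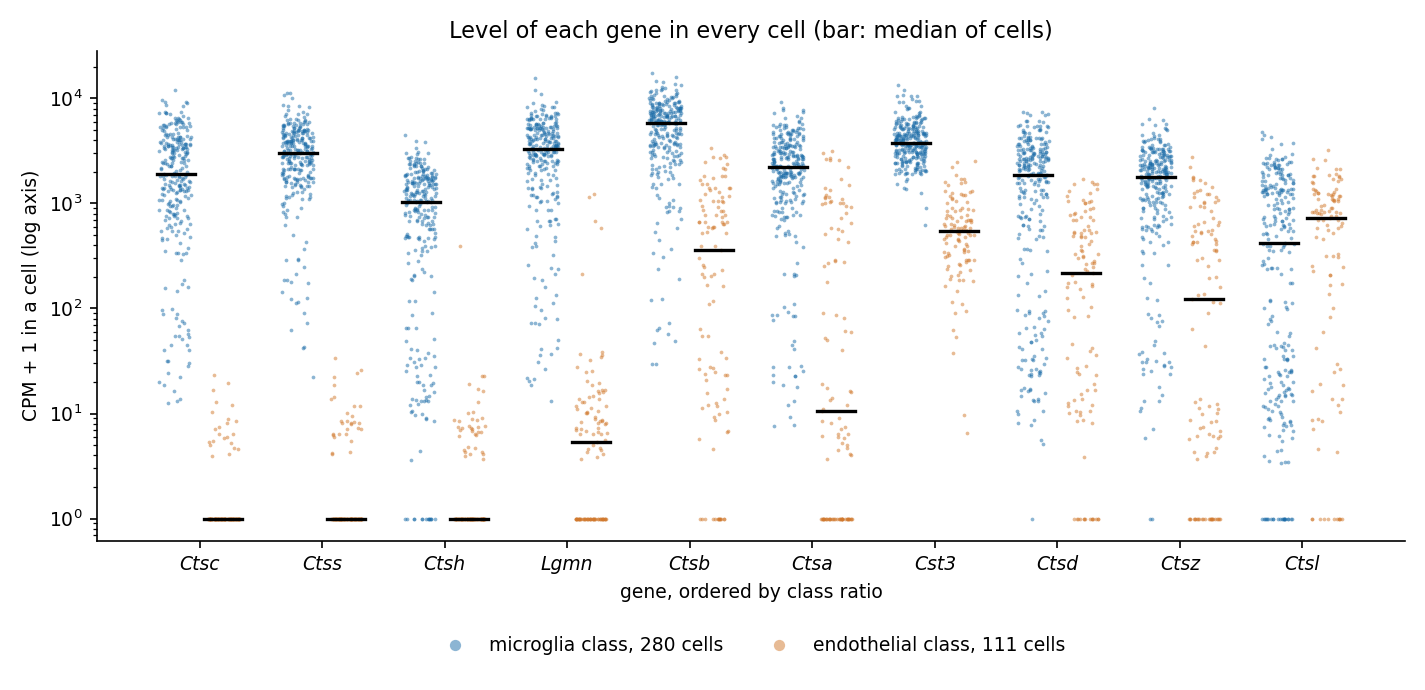
Level of the 10 genes in every cell, as CPM + 1 on a log axis, for 280 microglia (left of each pair) and 111 endothelial cells (right). Points are cells, bars are medians of cells, and points at the bottom edge are cells without a read. For Ctsc, Ctss, Ctsh and Lgmn most microglia lie above nearly all endothelial cells, though 62 microglia are under 100 CPM for Ctsh and 30 for Ctsc, and the Ctsl clouds lie over each other.

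Ctsb, a cysteine protease that cuts proteins internally and also trims dipeptides from their ends, had the highest level of the 10 genes in microglia at 4861 CPM, against 695 CPM in endothelial cells, a ratio of 7.00 (6.88 to 7.11). Single microglia ranged between 28.4 and 17434 CPM with a median of 5796 CPM, and single endothelial cells between 0.0 and 3366 CPM with a median of 360 CPM. No endothelial cell exceeded the microglia median. Ctsd, the main aspartic protease of lysosomes, stood at 1917 CPM in microglia and 379 CPM in endothelial cells, a ratio of 5.06 (4.94 to 5.17). Its range over single microglia was 0.0 to 7359 CPM with a median of 1882 CPM, and over single endothelial cells 0.0 to 1694 CPM with a median of 216 CPM. Again no endothelial cell passed the microglia median, though 66 of 280 microglia lay under the endothelial median.

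Ctsa encodes a carboxypeptidase that also shields the enzymes encoded by Neu1 and Glb1 from degradation. The summed level of Ctsa was 2267 CPM in microglia and 361 CPM in endothelial cells, a ratio of 6.28 (6.14 to 6.43). The endothelial level was uneven, with single cells between 0.0 and 3167 CPM and a median of 9.54 CPM, beside 6.69 to 9233 CPM and a median of 2228 CPM in single microglia. Only 39 of 111 endothelial cells stood at 100 CPM or more, and these held 97.9% of the endothelial Ctsa reads. Ctsz, another carboxypeptidase, also called cathepsin X, stood at 1828 CPM in microglia and 424 CPM in endothelial cells, a ratio of 4.31 (4.22 to 4.41). The range over single cells was 0.0 to 8093 CPM with a median of 1803 CPM in microglia and 0.0 to 2775 CPM with a median of 121 CPM in endothelial cells.

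Ctsl, an endopeptidase that also takes part in invariant chain cleavage, stood at 861 CPM in microglia and 759 CPM in endothelial cells, a ratio of 1.13 (1.11 to 1.15). In single microglia it ran between 0.0 and 4824 CPM with a median of 418 CPM, and in single endothelial cells between 0.0 and 3220 CPM with a median of 728 CPM. The median of cells was thus higher in endothelial cells although the summed level was higher in microglia, and on the medians the log2 ratio was -0.80. The microglia were spread more widely, with 112 of 280 under 100 CPM and an upper quartile of 1366 CPM, against 1195 CPM in endothelial cells. At least 10 reads were found in 60.0% of microglia (54.0% to 65.8%) and 74.8% of endothelial cells (65.6% to 82.5%), and after thinning each cell to 71000 reads in 60.6% and 71.2%.

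Cst3 was the most even of the 10 genes. Every microglia cell held at least 622 CPM, with a median of 3763 CPM and a highest value of 13386 CPM, and single endothelial cells held between 5.46 and 2510 CPM with a median of 543 CPM. No endothelial cell exceeded the microglia median and no microglia cell fell under the endothelial median. The summed level was 3543 CPM in microglia and 660 CPM in endothelial cells, a ratio of 5.37 (5.28 to 5.47). The coefficient of variation over cells was 0.465 in microglia and 0.769 in endothelial cells. Astrocytes and the choroid plexus epithelium are known as strong sources of Cst3. The 8 astrocyte markers summed to 125 CPM in microglia and 375 CPM in endothelial cells, with 6 and 5 of them at 1 CPM or more, and over single cells the sum ran between 0.0 and 4677 CPM in microglia and 0.0 and 3213 CPM in endothelial cells. Gja1, at 4.53 CPM in microglia and 352 CPM in endothelial cells, made up most of the endothelial sum. Slc1a3 stood at 60.6 CPM in microglia and 1.45 CPM in endothelial cells, Aldoc at 37.0 and 13.5 CPM and Slc1a2 at 14.9 and 5.48 CPM. Aldh1l1 stood at 5.81 CPM in microglia and 0.0468 CPM in endothelial cells, S100b at 1.96 and 0.983 CPM, Gfap at 0.0210 and 0.234 CPM and Aqp4 at 0.0 and 1.12 CPM. The 8 choroid plexus epithelium markers summed to 25.5 CPM in microglia and 150 CPM in endothelial cells, with 3 and 2 of them at 1 CPM or more, over ranges of 0.0 to 2808 CPM and 0.0 to 3200 CPM. Aqp1, at 0.0 CPM in microglia and 108 CPM in endothelial cells, and Ttr, at 17.8 and 40.1 CPM, made up most of the endothelial sum. The part of these markers in the endothelial Cst3 level was not tested.

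All 10 ratios were above 1 within both plates that held both classes, as were those of most genes by the all-gene medians below. Several of the 10 were smaller there than over all cells. In plate A, 8 genes were at least 4-fold higher in microglia, where 46.5% of 14160 genes were, and in plate B 6 genes were, where 48.4% of 13649 genes were. The median log2 ratio of the 10 genes was 2.86 in plate A and 2.66 in plate B, against 1.73 and 1.87 over all genes, and the endothelial values there rest on 7 and 10 cells. Cst3 had 4238 CPM in microglia and 1078 CPM in endothelial cells of plate A, and 3165 and 930 CPM in those of plate B, so its ratio fell short of 4-fold in both. Ctsd had 1697 CPM in microglia and 625 CPM in endothelial cells of plate B, a ratio of 2.72, and Ctsz had 1706 and 852 CPM there, a ratio of 2.00. Endothelial cells of plates C and D stood at 412 and 276 CPM of Ctsd, 377 and 367 CPM of Ctsz, and 523 and 696 CPM of Cst3. For these 3 genes the endothelial cells of plate B were higher than those of plates C and D. Microglia of plate A were higher than those of plate B for each of the 10 genes, from 1.12-fold for Ctsa to 1.52-fold for Ctsb. The shift was not particular to these genes. The summed microglia core markers had 39361 CPM in microglia of plate A and 31655 CPM in those of plate B, whereas immediate early genes had 22888 and 23584 CPM. The share of all genes higher in plate A was not counted.

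**Figure D2:**
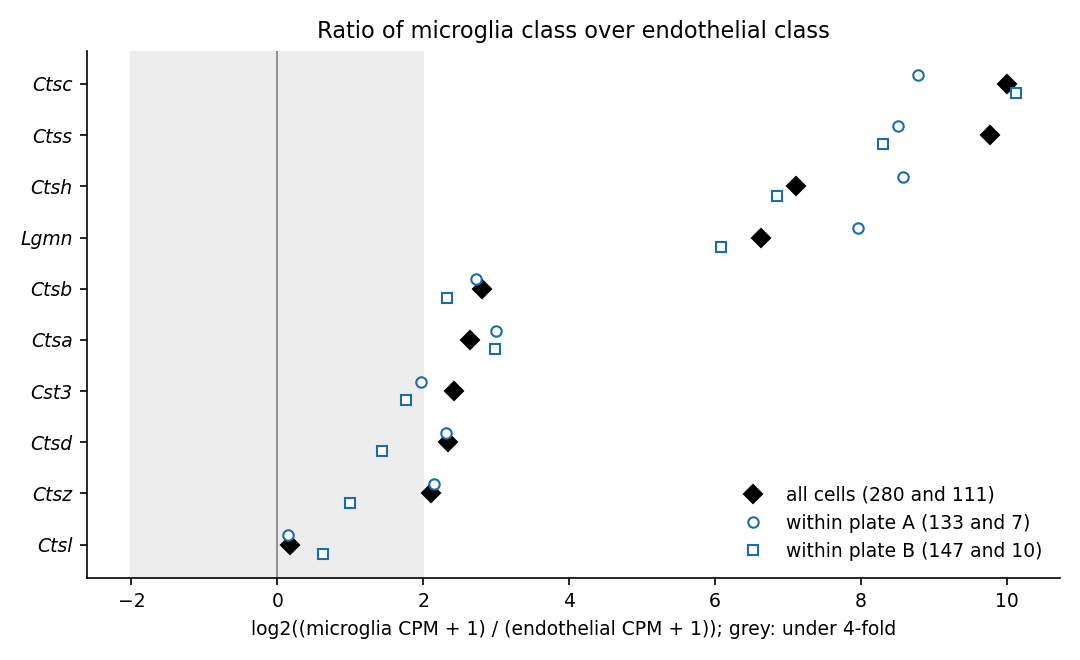
Log2 ratio of microglia over endothelial CPM, with 1 CPM added to each, for the 10 genes over all cells (diamonds), within plate A (circles) and within plate B (squares). The grey band marks ratios under 4-fold. Ctsl lies near 0 in each, and Cst3 falls inside the band in both plates.

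Most cells carried several of the genes at once. All 10 were read in at least 50% of microglia, as were 7.63% of all measured genes, and 7 were in endothelial cells, where 8.48% of genes were. The endothelial exceptions were Ctsc, Ctss and Ctsh, with a read in 20.7%, 27.0% and 33.3% of cells. At 10 reads or more, the median microglia cell carried 9 of the 10 genes and the median endothelial cell 4. All of Ctsa, Ctsb, Ctsd, Ctsl, Ctsz and Cst3 were carried by 143 of 280 microglia (51.1%, 45.1% to 57.1%) and by 4 of 111 endothelial cells (3.60%). Ctsc, Ctsh, Ctss and Lgmn together were carried by 191 microglia (68.2%, 62.4% to 73.6%) and by 0 of 111 endothelial cells, which by the same limit allows up to 2.70%. That 0 was fixed by the choice of genes, since 0 of 111 endothelial cells reached 10 reads of Ctsc and 0 of 111 reached 10 reads of Ctss. Of the endothelial cells, 105 carried none of these 4. All 6 of the shared genes were thus rarely found in a single endothelial cell at that depth.

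Levels of different genes were compared as CPM per kilobase of exon. In microglia the order ran Cst3 at 2799, Ctss at 2265, Lgmn at 1397, Ctsz at 1269, Ctsd at 816, Ctsb at 803, Ctsa at 481, Ctsc at 407, Ctsh at 243 and Ctsl at 133 CPM per kb. In endothelial cells it ran Cst3 at 521, Ctsz at 294, Ctsd at 161, Ctsl at 117, Ctsb at 115 and Ctsa at 76.5 CPM per kb, with Lgmn at 13.7 and the other 3 genes under 2 CPM per kb. Ctsd and Ctsb exchanged places between plates A and B in microglia, and in endothelial cells the plate values of Ctsd, Ctsl and Ctsb overlapped, with Ctsl at 130, Ctsd at 117 and Ctsb at 116 CPM per kb in plate D, so these have no stable order. Ctsl was 10 of 10 by rank in microglia and 4 of 10 by rank in endothelial cells, at 133 CPM per kb in microglia and 117 in endothelial cells. These ranks rest on its length, 6489 bases of exon and 6168 bases in its longest coding transcript, the longest of the 10 genes by either. The 2 lengths of Ctsl are close, so the second hardly checks the first. A shorter transcript would raise its level per length, and which transcripts the cells use was not tested. With the longest coding transcript as the length, Ctsa, Ctsb, Ctsc, Ctsd and Ctsh changed places in microglia and the first 4 and the last gene kept theirs. In endothelial cells Ctsl and Ctsb exchanged places by that length, as did Ctsh and Ctss.

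The 9 protease genes together took 2.15% of the gene reads of microglia and 0.266% of those of endothelial cells. In plates A and B the share was 2.56% and 1.93% in microglia, and in plates A, B, C and D it was 0.312%, 0.313%, 0.260% and 0.256% in endothelial cells. Of the summed protease level per length, Ctss made up 29.0% in microglia and 0.238% in endothelial cells, Lgmn 17.9% and 1.75%, Ctsz 16.2% and 37.6%, Ctsd 10.4% and 20.7%, and Ctsl 1.70% and 15.0%. The level of Cst3 per unit of summed protease, both per length, was 0.358 in microglia and 0.667 in endothelial cells. It was 0.360 and 0.357 in the microglia of plates A and B, and 0.951, 0.636, 0.546 and 0.781 in the endothelial cells of plates A to D. The plate values of the classes, which are from summed reads, did not overlap, but single cells of the classes did. Over single cells the ratio had a median of 0.368 in microglia and 0.607 in endothelial cells. The upper quartile of single microglia, 0.544, lay above the lower quartile of single endothelial cells, 0.385. The value is a ratio of transcripts and, like the shares, rests on the exon lengths used, also on that of Ctsl. Cystatin C inhibits cysteine cathepsins and legumain, and not the serine carboxypeptidase of Ctsa or the aspartic protease of Ctsd, both of which are in the sum.

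**Figure D3:**
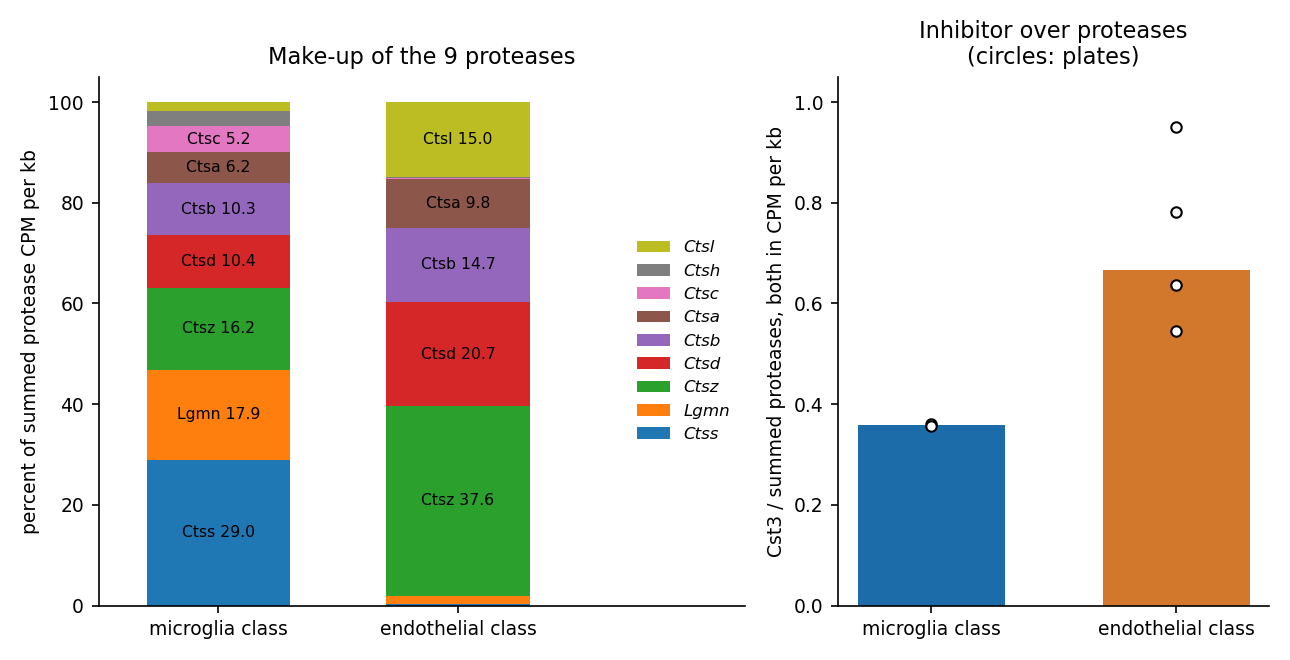
Left, the share of each of the 9 protease genes in their summed CPM per kb, in percent, for the microglia class and the endothelial class. Right, Cst3 over the summed proteases, both in CPM per kb, with bars for all cells and circles for plates. By the exon lengths used, Ctss leads in microglia and Ctsz in endothelial cells, and the ratio is 0.358 in microglia and 0.667 in endothelial cells.

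The other genes of the pathway were taken from 6 lists and read by the same 4-fold rule. Within plates A and B, 46.5% and 48.4% of all genes were higher in microglia by that rule, and the endothelial values rest on 7 and 10 cells. Of 19 further cathepsins and lysosomal peptidases, 8 were measured at 1 CPM or more, 5 of them higher in microglia and none in endothelial cells, with a median log2 ratio of 2.71, and of 5.89 and 5.73 within plates A and B. Prcp, a prolyl carboxypeptidase, had 332 CPM in microglia and 2.06 CPM in endothelial cells, and Scpep1, a serine carboxypeptidase, 421 and 69.6 CPM. Tpp1, a tripeptidyl peptidase, had 565 CPM in microglia and 218 CPM in endothelial cells, and Ctso, another cysteine cathepsin, 166 and 192 CPM. Both lay under 4-fold, though not within each plate. Tpp1 had 594 CPM in microglia and 81.1 CPM in endothelial cells of plate A, and Ctso 149 and 1.41 CPM in those of plate B. Of 25 further cystatins and other cathepsin inhibitors, 7 were measured, 2 higher in each class, with a median log2 ratio of -0.41. Within plate A that median was 0.73 and within plate B -0.74, so the direction of this list differed between plates. Ctla2a, an inhibitor that resembles a cathepsin propeptide, had 1.45 CPM in microglia and 181 CPM in endothelial cells, though its reads may be shared with the near-identical Ctla2b. Serpinb9, a granzyme B inhibitor, had 31.5 CPM in microglia and 153 CPM in endothelial cells, but 21.2 and 1.04 CPM in plate A, where the direction was the opposite, and 37.1 and 150 CPM in plate B. Cst7, which encodes cystatin F, had 24.1 CPM in microglia and 0.0468 CPM, a single read, in endothelial cells. Cstb, an inhibitor that stays inside the cell, had 123 CPM in microglia and 60.4 CPM in endothelial cells, and Serpinb6a had 155 and 206 CPM.

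Of 17 genes that carry enzymes to lysosomes, 3 were higher in microglia, 1 in endothelial cells and 13 lay between, with a median log2 ratio of 0.49, and of 0.59 and 2.35 within plates A and B. The 2 mannose 6-phosphate receptors differed. M6pr, the smaller, had 290 CPM in microglia and 86.3 CPM in endothelial cells, and Igf2r, the larger, had 4.97 and 59.1 CPM. Igf2r had 0.0 CPM in microglia and 67.6 CPM in endothelial cells of plate A, and 7.68 and 99.0 CPM in those of plate B. Sorl1, a sorting receptor, had 49.9 CPM in microglia and 0.562 CPM in endothelial cells, and Lrp1, an endocytic receptor, 189 and 13.3 CPM. Grn, which encodes progranulin, had 2866 CPM in microglia and 1060 CPM in endothelial cells, and Nagpa, which uncovers the mannose 6-phosphate signal, 237 and 102 CPM. The 3 protein partners lay under 4-fold, with Psap, a source of lysosomal activator proteins, at 1559 CPM in microglia and 965 CPM in endothelial cells, Neu1 at 270 and 191 CPM, and Glb1 at 132 and 77.9 CPM. Their median log2 ratio was 0.69, and 2.73 and 0.41 within plates A and B. In plate A Psap had 1535 CPM in microglia and 231 CPM in endothelial cells and Neu1 219 and 3.12 CPM, both past 4-fold. Glb1 had 156 CPM in microglia and 377 CPM in endothelial cells of plate A, and 118 and 184 CPM in those of plate B, so it was lower in microglia within both plates. M6pr in plate A, at 290 CPM in microglia and 3.12 CPM in endothelial cells, also passed 4-fold. So did Nagpa in plate B, at 245 and 0.471 CPM. Of all genes, 46.5% in plate A and 48.4% in plate B were 4-fold higher in microglia, with 7 and 10 endothelial cells there.

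Of the 15 genes for antigen processing and endosomal receptors, 14 were higher in microglia, with a median log2 ratio of 5.85, and of 6.76 and 7.00 within plates A and B. The invariant chain gene Cd74 had 3732 CPM in microglia and 42.9 CPM in endothelial cells, and the MHC class II genes H2-Aa, H2-Ab1 and H2-Eb1 had 2541, 2285 and 2187 CPM in microglia and 72.7, 59.9 and 17.4 CPM in endothelial cells. Tlr13, an endosomal sensor of bacterial RNA, had 167 CPM in microglia and 0.0468 CPM in endothelial cells. The exception was Tlr3, a sensor of double-stranded RNA, at 29.3 CPM in microglia and 34.6 CPM in endothelial cells. Of the 4 transcription factors of the TFEB family, 3 were higher in microglia. Mitf had 58.1 CPM in microglia and no read in endothelial cells, Tfec 31.4 CPM and a single read, and Tfeb 50.1 and 7.30 CPM. Tfe3, the most abundant, lay under 4-fold at 241 CPM in microglia and 83.7 CPM in endothelial cells, but had 251 and 2.08 CPM in plate A and 235 and 174 CPM in plate B. The median log2 ratio of the 4 was 3.79, and 5.67 and 5.26 within plates A and B.

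The palindrome CACGTG, the core of the sites these factors bind, was searched on both strands in the promoter windows of RefSeq (GRCm38.p6, an older build than that of the counts), which run from 250 bases before to 50 bases after a start site. Windows were found for 8 of the 10 genes. The core was present in those of Ctsa, Ctsd, Ctsl and Lgmn, as in 8.09% of 27025 genes, and the longer form TCACGTGA, which contains it, in those of Ctsa and Ctsd, as in 1.12% of genes. For Ctsa and Lgmn it lay only at the second of 2 start sites. The 4 windows that hold the core are shown. They are chr7:142387778-142388077 on the minus strand for Ctsd, chr13:64370471-64370770 on the minus strand for Ctsl, chr12:102439043-102439342 on the minus strand for Lgmn and chr2:164833523-164833822 on the plus strand for Ctsa. Capitals mark the longer form where it is present and otherwise the core.
Ctsd: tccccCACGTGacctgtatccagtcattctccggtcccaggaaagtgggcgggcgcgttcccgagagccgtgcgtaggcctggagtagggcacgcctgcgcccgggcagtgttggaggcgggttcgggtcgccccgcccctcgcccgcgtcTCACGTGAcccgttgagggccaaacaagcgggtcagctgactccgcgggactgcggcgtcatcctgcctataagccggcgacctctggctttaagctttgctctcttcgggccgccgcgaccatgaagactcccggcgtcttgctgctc
Ctsl: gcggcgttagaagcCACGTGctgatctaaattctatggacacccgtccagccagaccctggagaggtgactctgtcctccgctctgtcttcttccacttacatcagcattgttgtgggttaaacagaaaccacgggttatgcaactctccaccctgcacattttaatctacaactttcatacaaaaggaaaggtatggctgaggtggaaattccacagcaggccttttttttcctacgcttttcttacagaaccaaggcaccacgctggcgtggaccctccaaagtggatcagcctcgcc
Lgmn, second start site: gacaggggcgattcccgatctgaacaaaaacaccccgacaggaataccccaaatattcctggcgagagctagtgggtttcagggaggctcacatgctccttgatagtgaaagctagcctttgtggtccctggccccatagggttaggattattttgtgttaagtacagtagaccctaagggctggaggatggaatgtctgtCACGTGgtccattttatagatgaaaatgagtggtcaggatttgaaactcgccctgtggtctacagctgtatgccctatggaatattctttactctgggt
Ctsa, second start site: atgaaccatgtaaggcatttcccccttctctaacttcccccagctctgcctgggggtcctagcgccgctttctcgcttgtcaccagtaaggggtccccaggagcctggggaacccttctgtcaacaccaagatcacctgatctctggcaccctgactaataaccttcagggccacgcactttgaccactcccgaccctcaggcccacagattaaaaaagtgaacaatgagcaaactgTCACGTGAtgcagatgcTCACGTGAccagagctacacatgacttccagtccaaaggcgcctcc

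In Ctsd the core of the longer form begins 98 bases before the start site and a second core 245 bases before it. The core begins 236 bases before the start site in Ctsl and 49 bases before it in Lgmn. A match is a run of letters and does not show a bound site.

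Across the 280 microglia the 10 genes varied together more than most gene pairs. Spearman's rho of log2(CPM + 1) over cells had a median of 0.19 over the 45 pairs and ran between -0.17 and 0.57, and 40 pairs were positive. Of the pairs, 12 reached 0.3, as did 0.521% of the 549676 pairs of 1049 well-detected genes (50 CPM and a read in 50% of cells), whose median was 0.03. That background was not matched for level, and the 10 genes stood at 861 to 4861 CPM in microglia. Within plates A and B the median over the 45 pairs was 0.16 and 0.19, and given the gene reads and genes detected of each cell it was 0.19. These values describe cells that share plates and library depth. The highest values were those of Ctsd with Ctsl at 0.57 and Ctsd with Lgmn at 0.53, then Ctsb with Ctsc at 0.45, and Ctsl with Lgmn and Ctsb with Lgmn at 0.41 each. With the summed level of the 4 TFEB family genes, the rho was 0.10 for Ctsd, 0.05 for Ctsl and 0.07 for Lgmn, and over the 10 genes it ran between -0.12 and 0.17. Ctsc and Ctss had the lowest value at -0.17, which was -0.25 in plate A and -0.21 in plate B. Ctsh was related to none of the others beyond 0.17.

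Across the 111 endothelial cells the 7 genes read in at least 50% of cells had a lower median. The rho over 21 pairs had a median of -0.01 and a range of -0.20 to 0.19, and none reached 0.3, as did 0.255% of 694431 pairs of genes of like detection. Ctsd and Ctsl, the strongest pair in microglia, had a rho of -0.07 in endothelial cells, and Ctsd and Lgmn had 0.19, although most of the Lgmn values rest on a few reads.

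**Figure D4:**
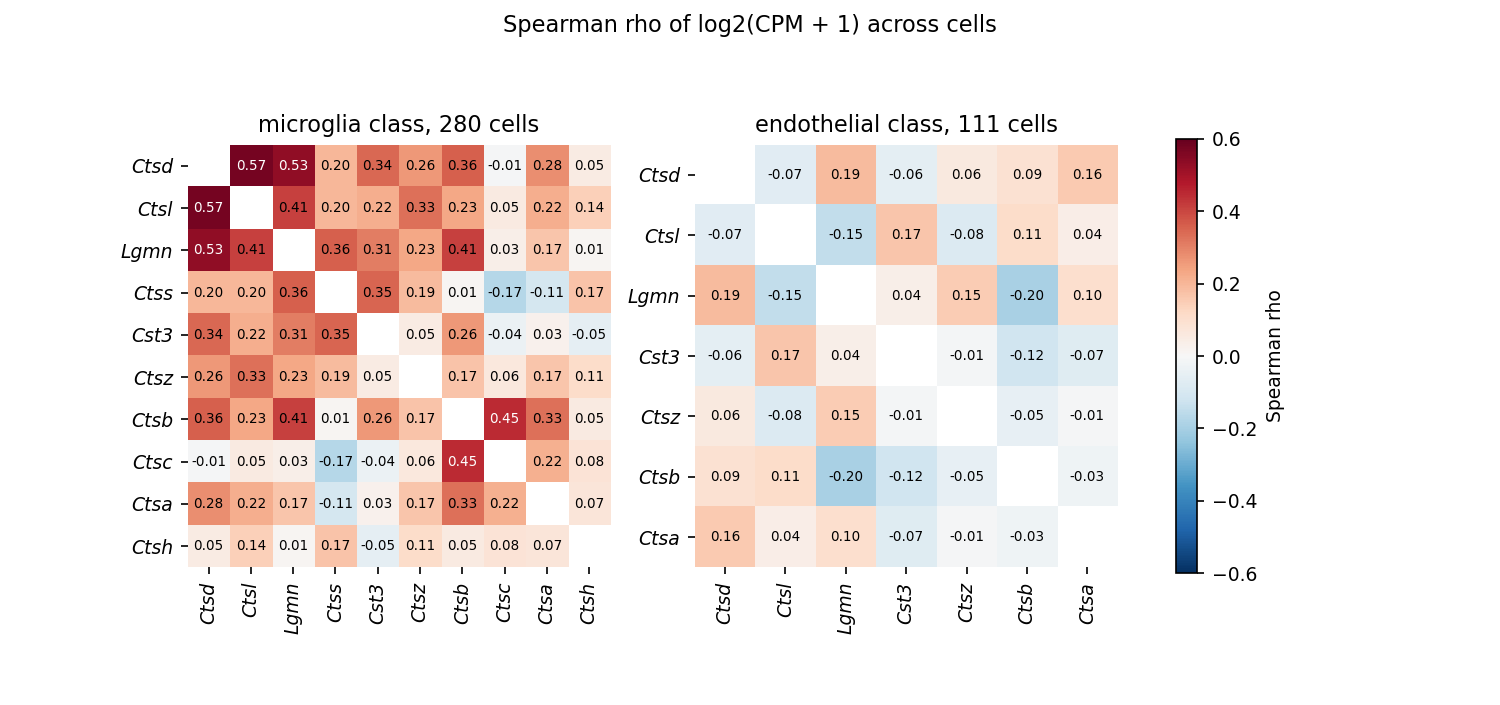
Spearman's rho of log2(CPM + 1) across cells for each pair of genes, in 280 microglia (left, 10 genes) and 111 endothelial cells (right, the 7 genes read in at least 50% of cells). Red is positive and blue negative. In microglia Ctsd, Ctsl and Lgmn stand at 0.41 to 0.57 and Ctsb with Ctsc at 0.45, and no endothelial pair passes 0.19.

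The genes whose levels were most like those of each member differed between the members. Ctsb was closest to Selenop at 0.75, Itm2b at 0.66 and Apoe at 0.63, and Ctsc was closest to Mrc1, the mannose receptor of border macrophages, at 0.52, then Pf4 at 0.50 and Selenop at 0.49. Among the genes most like Ctss were Cx3cr1, the fractalkine receptor, at 0.60 and Olfml3 at 0.57. Lgmn was closest to Ctsd, then Csf1r, the receptor for macrophage growth factors, at 0.50 and P2ry12, a purine receptor of microglia, at 0.47. Ctsd and Ctsl were closest to each other, with Trem2, a lipid receptor, second for both at 0.54 and 0.45. Ctsd then followed with Lgmn and Ctsl with P2ry12 at 0.42. The remaining cathepsins had weaker neighbours. Ctsa was closest to Ctsb at 0.33, Pmp22 at 0.32 and Selenop at 0.31, Ctsz to Ctsl at 0.33, Trem2 at 0.26 and Ctsd at 0.26, and Ctsh to H2-T23 at 0.24, Ly86 at 0.22 and Tmem176b at 0.21.

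Among the 10 genes Cst3 had the strongest relation to library size in microglia, but not in endothelial cells. Its rho with the gene reads of a cell was -0.62 in microglia and -0.03 in endothelial cells, the next in microglia was Ctsb at -0.38, and the strongest in endothelial cells was Lgmn at -0.29. Its closest genes were Rn18s-rs5, a copy of ribosomal RNA, at 0.62, and the complement genes C1qb at 0.60 and C1qc at 0.56. Given the gene reads and genes detected of each cell, these became -0.01, 0.32 and 0.29. In endothelial cells the closest genes were Tuba1b at 0.35, Kdelr2 at 0.34 and Fth1 at 0.31 for Cst3, and Nedd4 at 0.36, Selenop at 0.33 and Tspan3 at 0.31 for Ctsb. For Ctsa they were Dusp6, Psmb8 and Cct6a at 0.23 to 0.25, for Ctsd Tmbim1, Eva1b and Maged1 at 0.29, and for Ctsl Pgls, Atp1b3 and Smdt1 at 0.27 to 0.31. Ctsz had Rhob, Icam2 and Cpd at 0.29, and Lgmn had Smarca2, Ly6e and Ubr4 at 0.34. After thinning, Smarca2 fell to 0.18 with Lgmn, Cct6a to 0.12 with Ctsa and Tspan3 to 0.24 with Ctsb.

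The microglia class was then divided by clustering on 2000 variable genes, with the 10 genes and the 6 pathway lists left out, so that their levels took no part. Cluster 1 held 143 cells (51.1%) and was called border-associated-macrophage-like. The 14 markers of these macrophages summed to 15703 CPM in it, 787 CPM in cluster 2 and 6299 CPM in cluster 3. Read in at least 50% of cells were 11 of them in cluster 1, 7 in cluster 2 and 10 in cluster 3, so that count hardly parts clusters 1 and 3. Cluster 2 held 50 cells (17.9%) and was parenchymal-microglia-like. All 10 parenchymal markers were so read in it, and 5 in each of clusters 1 and 3. Cluster 3 held 87 cells (31.1%) and stayed unnamed. The 5 MHC class II genes summed to 22067 CPM in it, against 5352 CPM in cluster 1 and 2023 CPM in cluster 2. The 10 dendritic cell markers summed to 2212 CPM in cluster 3, 367 CPM in cluster 1 and 154 CPM in cluster 2. Of these 10 only 1 was read in at least 50% of cells in cluster 3, beside 1 in cluster 1 and 0 in cluster 2. Each cluster came from both plates, with 72, 24 and 37 cells from plate A and 71, 26 and 50 from plate B. The median gene reads of a cell were 118848, 191150 and 189314 in clusters 1, 2 and 3.

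Ctsl and Ctsd differed most between clusters. Ctsl stood at 759, 1935 and 371 CPM in clusters 1, 2 and 3, and 10 reads or more of it were found in 62.2%, 90.0% and 39.1% of their cells. The parenchymal-microglia-like cluster was highest in plate A at 2096 CPM and in plate B at 1843 CPM, and the unnamed cluster lowest at 442 and 337 CPM. Ctsd stood at 2027, 3546 and 873 CPM, and in cluster 3 its median over cells was 131 CPM while the highest cell had 7091 CPM. Lgmn stood at 3273, 5183 and 2122 CPM, Ctss at 2514, 4469 and 2932 CPM, Ctsz at 1771, 2505 and 1512 CPM and Cst3 at 3608, 4406 and 2983 CPM. For all 6 of these genes cluster 2 was the highest in both plates.

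Ctsb and Ctsc were highest in the border-associated-macrophage-like cluster. Ctsb stood at 6653, 4144 and 3214 CPM in clusters 1, 2 and 3 and Ctsc at 3290, 1066 and 2040 CPM. The level of Ctsc was highest in cluster 1 and lowest in cluster 2 in plates A and B alike. Ctsa stood at 2745, 2366 and 1664 CPM. Ctsh, at 1078, 1049 and 1132 CPM, differed by no more than 1.08-fold between clusters.

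In all, 5 of the 10 genes had a highest cluster at least 2-fold above the lowest, as did 63% of the 5941 genes at 50 CPM or more in a cluster and 54.3% of the 431 genes at 500 CPM or more. The median fold of highest over lowest was 1.92 over the 10 genes, 2.44 over those 5941 genes and 2.17 over those 431. The share of genes past 2-fold was thus near the background. Between clusters lay 32.4% of the variance of log2(CPM + 1) over cells for Ctsd, 22.5% for Ctsb, 20.5% for Ctsl and 19.2% for Lgmn, and 2.08% for Ctsh. Most of the variation of each gene was within clusters. With the cluster means taken out, the median rho over the 45 pairs was 0.18, and Ctsb with Lgmn was highest at 0.60, with 0.46 in cluster 1, 0.10 in cluster 2 and 0.71 in cluster 3. Ctsd with Ctsl was 0.32, 0.08 and 0.55 in clusters 1, 2 and 3. The value in cluster 2 rests on 50 cells, of which 49 held Ctsd and 45 held Ctsl at 10 reads or more.

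**Figure D5:**
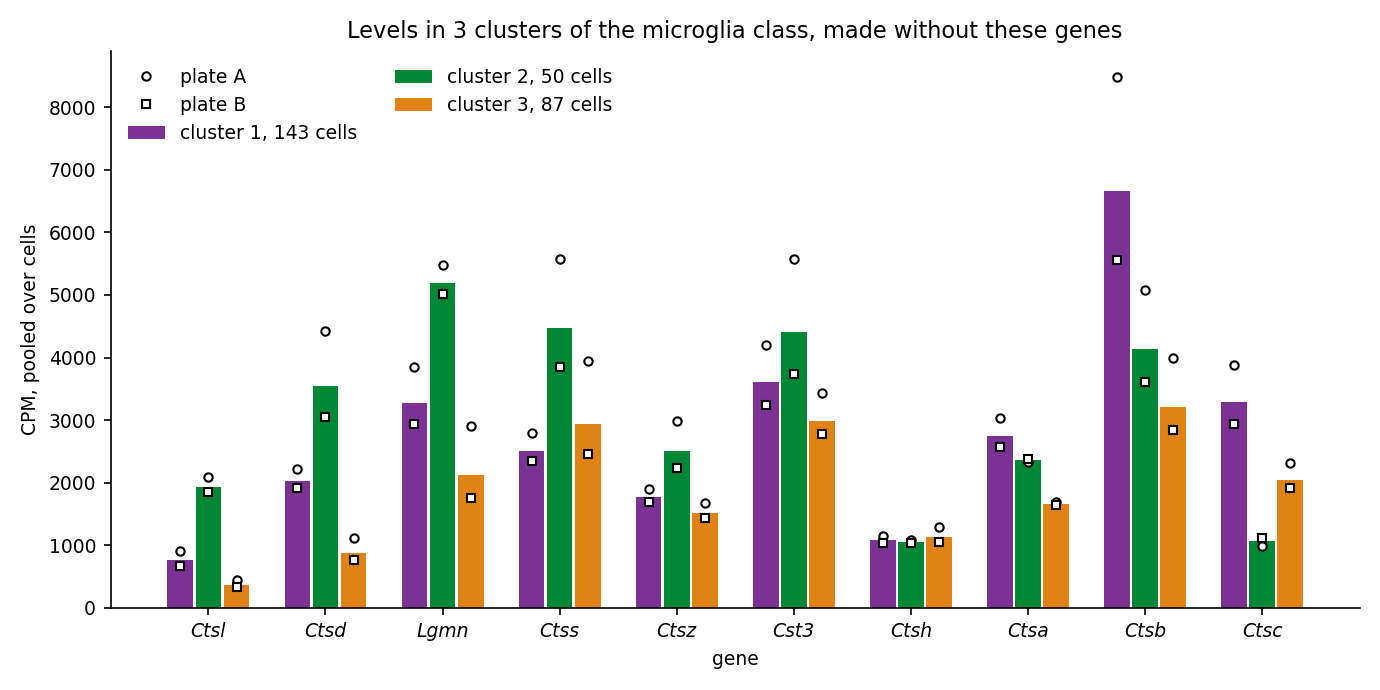
Summed CPM of the 10 genes in 3 clusters of the microglia class, with bars for all cells of a cluster and marks for its cells from plate A (circles) and plate B (squares). Ctsl, Ctsd, Lgmn, Ctss, Ctsz and Cst3 are highest in cluster 2, Ctsb, Ctsa and Ctsc in cluster 1, and Ctsh is level.

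The levels were also set against summed markers over the 280 single microglia. With the MHC class II sum the rho was -0.58 for Ctsd, -0.54 for Ctsl, 0.12 for Ctss and 0.13 for Ctsh. With the parenchymal microglia markers the rho was 0.55 for Lgmn, 0.54 for Ctsd, 0.50 for Ctss and 0.49 for Ctsl. With the border-associated macrophage markers it was 0.54 for Ctsc, 0.53 for Ctsb and -0.43 for Ctss. With the dendritic cell markers it was -0.40 for Lgmn, -0.33 for Ctsb, -0.32 for Ctsd and -0.27 for Ctsl. The part of these markers in the lower levels of cluster 3 was not tested. Immediate early genes, which answer to cell dissociation, summed to 23338 CPM in microglia and 11180 CPM in endothelial cells. Their rho in microglia was -0.32 with Ctsb and -0.23 with Ctsc, and for the other 8 genes it lay between -0.17 and 0.03. The part of dissociation in these levels was not tested. Cells with Sall1 at 10 reads or more and Mrc1 under 10, and the reverse, gave the same order without clusters. Ctsl stood at 1953 CPM in 36 Sall1 cells and 604 CPM in 186 Mrc1 cells, Ctsd at 3415 and 1534 CPM, and Ctsc at 974 and 3024 CPM.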

How the data were processed

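The authors deposited raw read counts, as whole numbers without normalization, of 56941 genes in 391 cells, and a cell table with 2 class codes. Genome build GRCm39, Subread 1.4.6-p5, featureCounts and SAMtools 1.16.1 are named in the submitters' processing notes. The sources used here do not give the aligner, annotation, use of strand or handling of duplicate and multiply mapped reads.

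Classes came from the labels, and table columns were matched to them through the deposited class codes. No count column was left out and none was identical to another. No cell was filtered and no doublet caller was run. CPM of a class are its summed reads of a gene over its summed reads of all genes. Log2 ratios add 1 CPM, which understates ratios of low genes. Sums have exact Poisson, ratios exact conditional binomial and shares Clopper-Pearson intervals at 95%. Exon lengths came from GENCODE M21, an older annotation, by symbol. Leiden clusters (resolution 0.5) were made from 15 neighbours in 20 principal components. All 10 genes are named, with the up to 4 most abundant genes and the most extreme ratio in each direction of a list, and the 3 genes of highest rho per member, without mitochondrial, predicted or ribosomal protein genes. A gene that this rule names is not reported here. The genes and lists were chosen with earlier results of these data known. On simulated data for microglia over endothelial cells (56941 genes, 200 changed), 95.5% of intervals held the true ratio, 100% of 8-fold genes and 0% of 2-fold genes were sized at 4-fold, and so were 0 of 14152 unchanged genes. Those simulated sums held counting error only, which the intervals assume, and no spread between cells, amplification or plates. They thus cannot show how the intervals or the 4-fold rule hold under such spread. Software was scanpy 1.11.5, scipy 1.17.1, pandas 2.3.3 and numpy 2.4.6 in Python 3.11.15, with edgeR 4.0.16 and DESeq2 1.42.0 in R 4.3.3 for scaling factors only. Alternatives were scaling, pseudocount, plates, depth, averaging over cells, fold, clustering and length.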

Additional observations from a re-analysis of the deposited data

How the results depend on the processing

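The number of the 10 genes at least 4-fold higher in microglia was 9, and it was 6 to 9 under the other scalings, pseudocounts, plate choices and cell filters and 4 under an 8-fold rule. Within plate B it was 6. The median-of-ratios scaling moved log2 ratios by -0.13, less for genes at low CPM in a class, and left 8 genes. The median log2 ratio, 2.73, was 2.87 for means over cells, 5.86 for medians over cells, 2.97 without plate B and 2.42 over genes at 10 CPM or more in both classes. Of 150 log2 ratios of single genes over 15 settings, only that of Ctsl for medians over cells was below 0. At 10 reads or more, 5 genes remained in at least 50% of endothelial cells. The median rho in microglia, 0.19, was 0.15 with Pearson's r, 0.21 after thinning, 0.16 within plate A, and 0.12, 0.15 and 0.25 within clusters 1, 2 and 3. In endothelial cells, where it was -0.01, it was -0.031 with Pearson's r, -0.017 after thinning, 0.0045 given depth, -0.0061 and -0.0037 within plates C and D and -0.00090 without the cells highest in microglia markers. The count of genes 2-fold apart between clusters, 5, was 3 at resolution 0.3 with 2 clusters, 8 at resolution 1.0 with 8 clusters and 3 between Sall1 and Mrc1 cells, and fewer or more clusters by construction change such a fold. The cause of the other shifts was not tested. No paired analysis was possible because no label gives the classes a shared replicate number or an animal and no test was made. The plates that hold both classes gave the within-plate values.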
